A study of Mus musculus with 8 samples.

Results

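Genes of the colon epithelium were followed on expression arrays of endothelial cells sorted from the mouse colon. The set holds 33 genes, chosen by name as genes that epithelial cells of the colon are known for, with earlier results of these data at hand. They are read by 55 of the 45037 probe sets on the array that are not controls, and they are 33 of the 18193 genes with a probe set naming that gene alone. The cells came from healthy C57BL/6J mice aged 8 weeks, 3 female and 1 male (replicate 4), and the labels give no treatment and no transgene. From each of the 4 mice, lymphatic endothelial cells (LEC) and blood vascular endothelial cells (BEC) were sorted by flow cytometry after the mucus had been scraped off and the opened colon digested with collagenase, which gave 4 LEC and 4 BEC arrays. The same replicate number stands for the same mouse, and the pairs had been selected for the quality of their RNA and cDNA. The sort used antibodies to CD31, podoplanin and CD45.2, and its gates are not described in the labels. No antibody to an epithelial antigen is named.

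The inner surface of the colon is a single layer of epithelial cells joined by cadherins and claudins and stiffened by simple keratins. Absorptive colonocytes take up water and salts through a brush border, and goblet cells secrete the gel of mucus that covers it. Both arise from crypt stem cells under transcription factors of the CDX and HNF4 families. Endothelial cells lie below this layer and use other cadherins and claudins, such as VE-cadherin and claudin 5.

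The endothelial genes followed the labels. All 15 pan-endothelial genes lay above the background level on all 8 arrays, with a list mean of 9.87 to 10.50 on LEC and 10.84 to 11.14 on BEC (log2 signal). The means of 7 lymphatic genes (Prox1, Lyve1, Flt4, Pdpn, Reln, Mmrn1 and Sema3d) were 12.18 to 13.04 on LEC and 4.39 to 5.50 on BEC. Those of 8 blood vascular genes (Flt1, Nrp1, Vwf, Entpd1, Cxcr4, Aplnr, Sema3g and Plvap) were 2.42 to 4.25 and 11.25 to 11.62. Of the listed endothelial genes, Pecam1 (CD31) and Pdpn (podoplanin) encode antigens stained for the sort. The lists were chosen with earlier results of these data known, so these values are no independent check of the labels. Background here means the level below which 95% of 27 Bacillus subtilis control probe sets fell, and it lay between 3.43 and 4.88 on the 8 arrays. Values under it are given as measured but carry no order. Levels of different genes come from different probe sets and are not set against each other.

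Epithelial genes were high on the same few arrays whichever cell type had been sorted. LEC replicate 3 and BEC replicate 3, which came from 1 mouse, and BEC replicate 4 stood above the rest. Of the 33 genes, 31, 32 and 30 lay above background on these 3 arrays, against 14, 14 and 21 on LEC replicates 1, 2 and 4 and 19 and 25 on BEC replicates 1 and 2. The array with the highest value was BEC replicate 3 for 20 genes, LEC replicate 3 for 9 and BEC replicate 4 for 4, where 9.68%, 11.03% and 10.61% of all genes tested had their highest value. The median range of a gene over the 8 arrays was 7.81 on the log2 scale for the 31 epithelial genes tested and 3.55 for all 13259 genes tested. In bulk samples, more epithelial cells and more RNA per epithelial cell cannot be told apart.

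**Figure D1:**
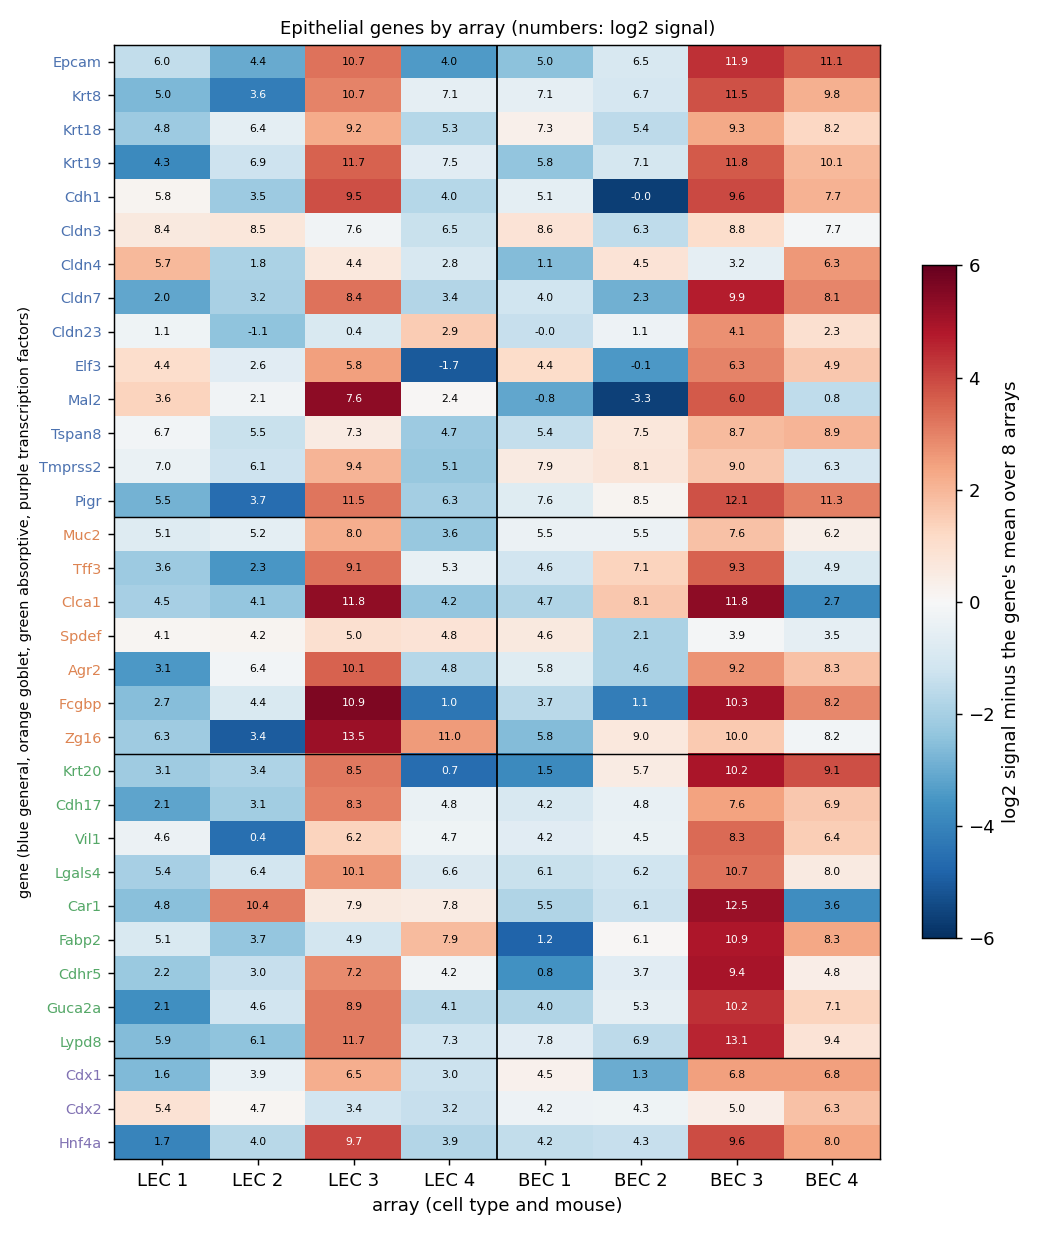
Log2 signal of the 33 epithelial genes (rows, grouped as general, goblet, absorptive and transcription factor genes) on the 8 arrays (columns); the colour is the signal minus the gene's own mean over the 8 arrays. Red cells gather in the columns of LEC replicate 3, BEC replicate 3 and, for most general and absorptive genes, BEC replicate 4.

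The general epithelial genes showed this order plainly. Epcam, the epithelial cell adhesion molecule, had log2 signals of 5.97, 4.43, 10.71 and 4.05 on LEC replicates 1 to 4 and 4.99, 6.48, 11.85 and 11.13 on BEC replicates 1 to 4. Its 3 highest values were LEC replicate 3 and BEC replicates 3 and 4, and the 2 cell types overlapped. The fitted difference (LEC minus BEC) was -2.32 ± 1.61 (SE; limma, adjusted p = 0.580), with a 95% interval of -5.80 to 1.15. Cdh1, the epithelial adherens junction protein E-cadherin, stood at 5.82, 3.49, 9.51 and 3.95 on the LEC arrays and 5.07, -0.02, 9.61 and 7.74 on the BEC arrays. Here too both arrays of mouse 3 were highest in their cell type. BEC replicate 2, by contrast, was far below background for Cdh1.

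Simple keratins form the intermediate filaments of the gut epithelium, and some other cell types also make Krt8 and Krt18. Krt8 was 4.98, 3.56, 10.69 and 7.15 on LEC and 7.15, 6.69, 11.53 and 9.83 on BEC, lower in LEC in 4 of 4 mice. Its difference was -2.20 ± 1.38 (limma, adjusted p = 0.525, and 0.079 when same-mouse arrays were paired in a replicate block). Krt19 read 4.32, 6.93, 11.68 and 7.48 on LEC and 5.81, 7.09, 11.84 and 10.10 on BEC. In mouse 3 the keratin signals of the 2 cell types were close, differing by -0.83 for Krt8, -0.16 for Krt19 and -0.07 for Krt18. The values of Krt18 (4.83, 6.40, 9.21 and 5.28 on LEC, 7.31, 5.44, 9.28 and 8.22 on BEC) spanned a narrower range, 4.44 on the log2 scale.

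Claudins, which seal tight junctions, did not all follow the same order. Cldn7 did, with 2.05, 3.23, 8.43 and 3.43 on LEC and 3.95, 2.29, 9.87 and 8.09 on BEC, and was above background on 3 arrays. Cldn3 was above background on all 8 arrays, at 8.38, 8.48, 7.57 and 6.46 on LEC and 8.64, 6.29, 8.84 and 7.69 on BEC. Its lowest and highest arrays were only 2.55 apart, and among the LEC arrays replicates 1 and 2 were above replicate 3. All 4 probe sets of Cldn3 had their highest value on BEC replicate 3, while the highest LEC array differed between them. Cldn4 was above background on 4 arrays (5.68, 1.85, 4.38 and 2.79 on LEC, 1.13, 4.54, 3.19 and 6.33 on BEC), and its order matched neither cell type nor mouse. Cldn23 did not pass the filter on low values and lay above background on BEC replicate 3 alone, at 4.10.

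Among surface and secretory-route genes, Pigr stood out for its difference between the cell types. It encodes the receptor that carries IgA and IgM across the epithelium. Its signals were 5.50, 3.72, 11.51 and 6.30 on LEC and 7.57, 8.49, 12.12 and 11.32 on BEC, lower in LEC in 4 of 4 mice. LEC replicate 3 lay above 3 of the BEC arrays, so the groups overlapped. The difference of -3.12 ± 1.41 did not pass the test (adjusted p = 0.330 by limma, and 0.0623 when same-mouse arrays were paired in a replicate block). Without LEC replicate 3 it was -4.70 with an adjusted p of 0.0262 by limma. The other probe set of Pigr read 4.91, 4.70, 9.53 and 2.85 on LEC and 4.82, 4.97, 10.38 and 8.36 on BEC. Its difference was -1.64, and in mouse 1 it was not lower in LEC. With the mean of the gene's probe sets the difference was -2.38 (limma, adjusted p = 0.462).

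Other genes of this kind varied in how far they followed the pattern. Tspan8, a tetraspanin, read 6.70, 5.49, 7.33 and 4.68 on LEC and 5.40, 7.53, 8.75 and 8.89 on BEC. Tmprss2, a membrane serine protease, was above background on all 8 arrays, at 6.98, 6.13, 9.42 and 5.09 on LEC and 7.88, 8.07, 8.97 and 6.34 on BEC. Elf3, an epithelial ETS transcription factor, was above background on 3 arrays (4.36, 2.64, 5.78 and -1.71 on LEC, 4.40, -0.12, 6.29 and 4.92 on BEC). Both arrays of mouse 3 were highest in their cell type for Tmprss2 and Elf3, whereas this probe set of Tspan8 was highest on BEC replicate 4, and 3 of its 4 other probe sets on BEC replicate 3. Mal2, a protein of transcytosis, did not pass the filter and was above background on both arrays of mouse 3, at 7.64 in LEC and 5.96 in BEC, with 3.64, 2.06 and 2.35 on the other LEC and -0.82, -3.31 and 0.77 on the other BEC arrays.

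Goblet cell genes were high on both arrays of mouse 3 but less so on BEC replicate 4. Clca1, a protease of the mucus gel, was 4.47, 4.13, 11.80 and 4.16 on LEC and 4.69, 8.08, 11.83 and 2.65 on BEC. The 2 arrays of mouse 3 differed by -0.03, while BEC replicate 4 was below background. The other probe set of Clca1 read 7.44 on LEC replicate 3 and 3.19, below background, on BEC replicate 3, so their near equality holds for 1 of 2 probe sets. Tff3, the trefoil peptide co-secreted with mucin, was also highest on the arrays of mouse 3, with 3.61, 2.31, 9.07 and 5.34 on LEC and 4.64, 7.14, 9.34 and 4.87 on BEC. Muc2, the main gel-forming mucin of the colon, spread less, at 5.06, 5.25, 8.04 and 3.59 on LEC and 5.52, 5.53, 7.63 and 6.22 on BEC.

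Zg16, a lectin-like protein of goblet cell granules, was highest on an LEC array. It read 6.29, 3.42, 13.55 and 10.95 on LEC and 5.82, 9.02, 10.00 and 8.23 on BEC. In mouse 3 it was 3.55 higher in LEC than in BEC and in mouse 4 it was 2.72 higher, whereas in mouse 2 the difference was -5.61. All 3 probe sets of Zg16 had their highest value on LEC replicate 3 (11.60, 12.62 and 13.55), but the difference in mouse 4 rested on 1 of them. The others read 5.45 and 6.53 on LEC replicate 4 and 5.51 and 6.25 on BEC replicate 4. Agr2, a disulphide isomerase needed for mucin folding, was 3.08, 6.37, 10.07 and 4.80 on LEC and 5.79, 4.62, 9.23 and 8.27 on BEC. Fcgbp, a mucin-like component of the gel, was above background on 4 arrays, at 2.75, 4.38, 10.89 and 0.97 on LEC and 3.69, 1.14, 10.33 and 8.16 on BEC. For Agr2 and Fcgbp, BEC replicate 4 was high as well.

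Spdef, the transcription factor of goblet cell maturation, did not share this order. Its values were 4.13, 4.16, 4.97 and 4.81 on LEC and 4.57, 2.09, 3.90 and 3.46 on BEC, above background on 5 arrays. The difference was 1.01 ± 0.85 (limma, adjusted p = 0.663).

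Absorptive cell genes were highest on BEC replicate 3 among the BEC arrays for 9 of 9 members, and 22.1% of all genes tested had their highest BEC value there. Lypd8, a surface protein that keeps bacteria off the colonic epithelium, had signals of 5.91, 6.12, 11.66 and 7.33 on LEC and 7.83, 6.94, 13.08 and 9.35 on BEC. Every LEC array was below the BEC array of its mouse, with differences of -0.82 to -2.02, and the groups overlapped across mice. The fitted difference of Lypd8 was -1.55 ± 1.35 (limma, adjusted p = 0.679, and 0.122 with the replicate block). Guca2a, which encodes guanylin, was 2.10, 4.63, 8.94 and 4.14 on LEC and 4.01, 5.28, 10.16 and 7.14 on BEC. As measured, Guca2a was lower in LEC in 4 of 4 mice as well, but both arrays of mouse 1 were below background and give no order.

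Lgals4, a galectin of the brush border, stood at 5.44, 6.36, 10.11 and 6.59 on LEC and 6.11, 6.22, 10.71 and 7.98 on BEC. Krt20, the keratin of mature surface cells, was above background on 4 arrays, with 3.15, 3.40, 8.46 and 0.68 on LEC and 1.46, 5.75, 10.16 and 9.15 on BEC. Its difference was -2.71 ± 1.83 (adjusted p = 0.565). LEC replicate 4 was below background, and with values raised to background the difference in mouse 4 was -5.14. Vil1, the brush border actin bundler villin, was 4.57, 0.40, 6.23 and 4.66 on LEC and 4.22, 4.51, 8.31 and 6.36 on BEC.

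The cadherins of the brush border and lateral membrane followed the same arrays. Cdh17 read 2.06, 3.13, 8.27 and 4.84 on LEC and 4.25, 4.78, 7.63 and 6.86 on BEC. Cdhr5, a protocadherin that links microvilli, read 2.17, 3.02, 7.22 and 4.18 on LEC and 0.78, 3.72, 9.36 and 4.80 on BEC.

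Fabp2 and Car1 differed from the other absorptive genes. Fabp2, the intestinal fatty acid binding protein, was 5.08, 3.66, 4.90 and 7.90 on LEC and 1.20, 6.09, 10.88 and 8.33 on BEC, with a difference of -5.97 between the 2 arrays of mouse 3. Car1, a carbonic anhydrase of surface colonocytes that red blood cells also contain, was 4.82, 10.41, 7.94 and 7.83 on LEC and 5.53, 6.05, 12.54 and 3.62 on BEC. The LEC array with the highest value was replicate 4 for Fabp2 and replicate 2 for Car1.

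Of the intestinal transcription factors, Hnf4a and Cdx1 were high on LEC replicate 3 and on BEC replicates 3 and 4. Hnf4a, a nuclear receptor of the gut epithelium, was 1.69, 3.98, 9.68 and 3.89 on LEC and 4.17, 4.29, 9.56 and 8.01 on BEC. Of its 3 other probe sets, 2 were highest on BEC replicate 3 and 1 on LEC replicate 1. Cdx1, an intestinal homeobox factor, was 1.64, 3.88, 6.51 and 3.04 on LEC and 4.55, 1.31, 6.75 and 6.78 on BEC. Cdx2, its close relative, was 5.43, 4.68, 3.41 and 3.20 on LEC and 4.25, 4.33, 4.96 and 6.33 on BEC, with LEC replicate 3 below background.

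Promoter windows of 300 bases (250 before to 50 after the gene's start, RefSeq, GRCm38.p6) were at hand for 23 of the 33 genes. CDX factors bind AT-rich sites, and the core TTTATG, searched on both strands (CATAAA on the other), was in 5 of 26 windows of these genes (19.2%), those of Epcam, Tspan8, Agr2, Spdef and Cdhr5. It was in 11.9% of all 32851 windows. The 3 windows shown are from a general, a goblet and an absorptive gene that were high on the same arrays, with the matching letters in capitals, 5′ to 3′ on the gene's strand.
Epcam, chr17:87635729-87636028, plus strand: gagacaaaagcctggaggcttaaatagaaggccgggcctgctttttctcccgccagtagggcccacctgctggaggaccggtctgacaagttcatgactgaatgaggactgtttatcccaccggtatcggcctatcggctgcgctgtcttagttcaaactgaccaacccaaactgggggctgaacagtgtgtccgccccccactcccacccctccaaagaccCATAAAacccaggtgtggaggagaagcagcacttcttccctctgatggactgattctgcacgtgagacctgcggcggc
Agr2, chr12:35992675-35992974, plus strand: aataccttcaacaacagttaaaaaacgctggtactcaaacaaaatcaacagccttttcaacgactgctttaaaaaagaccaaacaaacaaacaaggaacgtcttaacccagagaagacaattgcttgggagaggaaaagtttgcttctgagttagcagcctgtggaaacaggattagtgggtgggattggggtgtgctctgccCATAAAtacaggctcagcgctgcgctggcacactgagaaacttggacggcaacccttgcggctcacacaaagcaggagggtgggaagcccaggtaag
Cdhr5, chr7:141276737-141277036, minus strand: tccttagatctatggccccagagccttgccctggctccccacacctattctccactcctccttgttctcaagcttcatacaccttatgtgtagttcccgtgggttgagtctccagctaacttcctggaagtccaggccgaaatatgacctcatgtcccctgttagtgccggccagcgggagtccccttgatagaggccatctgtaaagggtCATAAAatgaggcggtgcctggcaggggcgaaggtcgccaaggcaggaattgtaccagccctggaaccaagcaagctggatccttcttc
In all 3 windows the match starts 28 to 47 bases before the gene's start, where letters like those of a TATA box can also lie. The match is a description of the letters, and the arrays measured no binding.

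None of the 31 epithelial genes that passed the filter differed between LEC and BEC by the test. The count was 0 of 31 by limma at an adjusted p under 0.05, where 4.07% of all 13259 genes were called (1.76% higher and 2.31% lower in LEC). At an unadjusted p under 0.05 it was 1 of 31 (Pigr), against 14.4% of all genes, and 4 of 31 against 16.1% when same-mouse arrays were paired in a replicate block. The fitted difference was below 0 for 27 and above 0 for 4 of the 31, with a median of -1.11. Over all 13259 genes it was below 0 for 6203 and above 0 for 7055, with a median of 0.08. Standard errors ran from 0.69 for Cldn3 to 2.12 for Fcgbp, with a median of 0.83 over all genes. They belong to the fit without the replicate block, so they hold the spread between mice as well. Differences of several log2 units lay within the intervals of many of these genes. For Lypd8 the interval was -4.44 to 1.35, while its same-mouse differences were -0.82 to -2.02. The same-mouse differences of Epcam ran from 0.98 to -7.08. Without LEC replicate 3, 1 member was called (Pigr), and 11 of 29 had an unadjusted p under 0.05, all lower in LEC, against 14.6% of all genes. No epithelial gene had all 4 LEC arrays on one side of all 4 BEC arrays, which held in each direction for 5.19% of all genes. Of the 31, 5 were lower in LEC in 4 of 4 mice (Krt8, Krt19, Pigr, Guca2a and Lypd8), against 11.1% of all genes, and 0 were higher in 4 of 4, against 14.3%. These counts use values as measured, and both arrays of mouse 1 were below background for Guca2a.

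Differences between mice were then examined. In a model with the cell type and the mouse, 21 of 31 had an unadjusted p under 0.05 for the mouse (limma's F test), where 8.11% of all genes did. After adjustment over all genes 0 of 31 passed, with the lowest adjusted p at 0.151 for Lypd8, and 1 of 13259 genes passed (0.00754%). The 21 were 8 of 12 general, 5 of 7 goblet, 7 of 9 absorptive and 1 of 3 transcription factor genes. Unadjusted p-values were 3.42e-05 for Lypd8, 1.31e-04 for Krt19, 2.07e-04 for Krt8 and 4.62e-04 for Clca1. Without both arrays of mouse 3 the count was 3 of 24, against 6.03% of all genes, and without another mouse it was 18 to 22. This comparison was added after the values had been seen. Whether the 2 arrays of a mouse also shared a day of sorting or amplification is not stated, so the animal and such steps cannot be told apart.

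The order of arrays was counted for the 31 genes and for all genes. LEC replicate 3 was the highest LEC array for 26 of 31 (22.8% of all genes), and BEC replicate 3 the highest BEC array for 26 of 31 (22.1%). Both lay above the other 6 arrays for 19 of 31, against 4.21%. Replicate 3 was the highest array in both cell types for 23 of 31, against 7.2% of all genes. LEC replicate 3, BEC replicate 3 and BEC replicate 4 all lay above the other 5 arrays for 20 of 31, against 2.99% of all genes. These counts describe a pattern seen in these arrays and are no test of it.

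**Figure D2:**
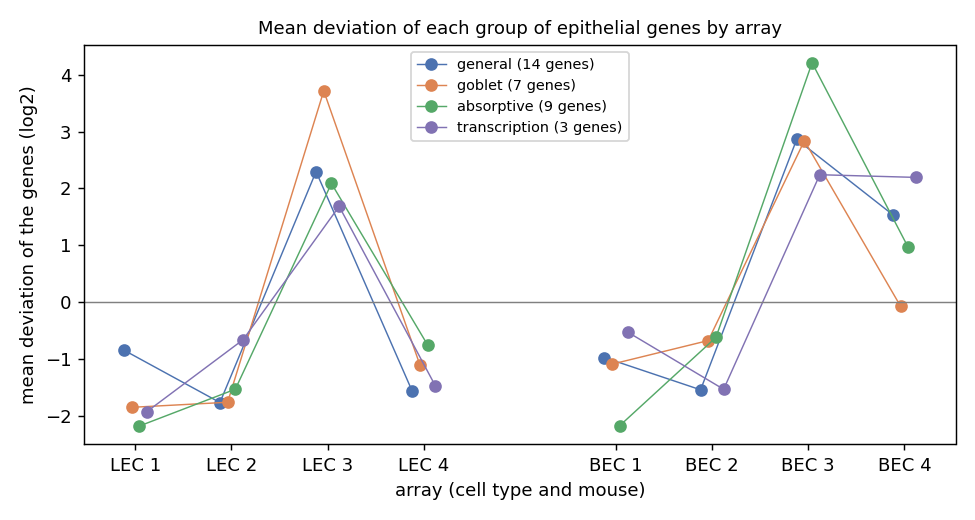
Mean deviation (log2) of the 14 general, 7 goblet, 9 absorptive and 3 transcription factor genes from each gene's own mean over the 8 arrays, by array; lines join arrays of 1 cell type and mark no order. LEC replicate 3 and BEC replicate 3 are above 0 for all 4 groups of genes; goblet genes are highest on LEC replicate 3 (3.72) and absorptive genes on BEC replicate 3 (4.21).

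Among the 33 genes, the goblet and absorptive groups were not raised equally on the 3 arrays. Each gene was set against its own mean over the 8 arrays, and the deviations were averaged per group. On LEC replicate 3 the mean deviation was 3.72 for goblet, 2.09 for absorptive and 2.30 for general genes. On BEC replicate 3 it was 2.84, 4.21 and 2.86, and on BEC replicate 4 it was -0.07, 0.96 and 1.54. Goblet minus absorptive was thus 1.63 on LEC replicate 3, -1.37 on BEC replicate 3 and -1.03 on BEC replicate 4. On the other 5 arrays it lay between -0.35 and 1.08. With values raised to background it was 1.76, -1.24 and -0.79 on the same 3 arrays and -0.52 to 0.59 on the others. In the other goblet and absorptive lists of further genes the same difference was 0.60 on LEC replicate 3, -1.88 on BEC replicate 3 and 0.82 on BEC replicate 4, and -0.68 to 0.65 on the other arrays. Only the value of BEC replicate 3 thus lay outside the other 5 arrays with the same sign in both sets of lists. The lists of further genes do not divide the cell types cleanly. Mep1b stands in the goblet and Mep1a in the absorptive list, and Muc3 and Muc13 are counted as goblet. The difference without these genes was not computed. These means over chosen genes have no replicate within an array and were not tested.

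Within mouse 3 the same split appeared gene by gene. Of 7 goblet genes, 5 were higher on its LEC than on its BEC array (Muc2, Spdef, Agr2, Fcgbp and Zg16). By contrast, 8 of 9 absorptive genes were lower on the LEC array, all but Cdh17. Over all genes tested, 6024 of 13259 were lower in LEC in mouse 3. In mouse 4, where the BEC array was the high one, all 12 tested general genes were lower in LEC, by -1.23 for Cldn3 to -7.08 for Epcam. The size for Epcam rested on 1 probe set, as its other probe set read 4.88 on LEC replicate 4 and 6.45 on BEC replicate 4. In mouse 4, 8 of 9 absorptive genes, all but Car1, were lower in LEC too. The share over all genes tested was 6531 of 13259 lower in LEC in mouse 4. Goblet genes of mouse 4 were divided, with 4 higher (Tff3, Clca1, Spdef and Zg16) and 3 lower in LEC.

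**Figure D3:**
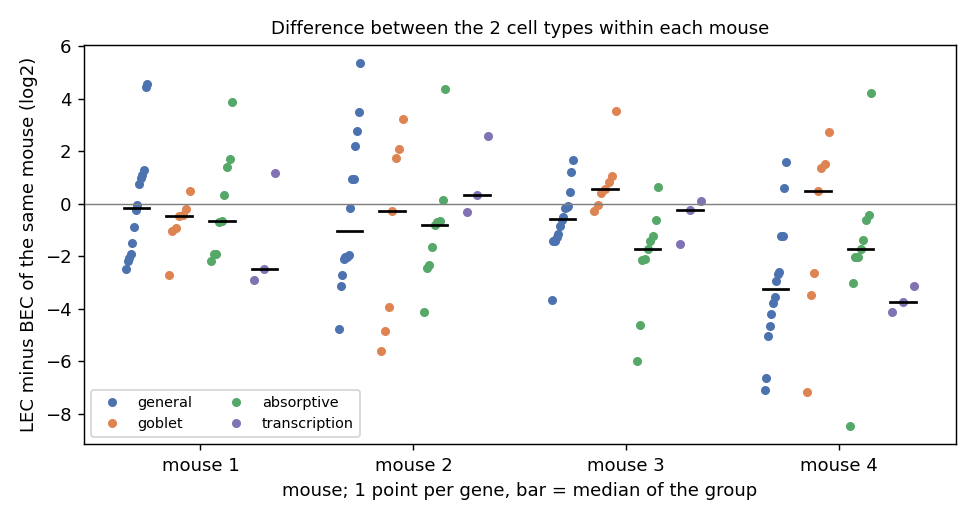
LEC minus BEC of the same mouse (log2) for each of the 33 genes, by group of genes and mouse; the bar is the group's median. General genes of mouse 4 lie mostly below 0, and absorptive genes of mouse 3 lie below 0 with 1 exception (Cdh17), while most goblet genes of mouse 3 lie above 0.

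Over the 4 mice, the mean difference LEC minus BEC was -0.94 for the general, -0.50 for the goblet, -1.19 for the absorptive and -1.19 for the transcription factor genes. The SD between arrays of a cell type was 1.61 to 2.73, which holds the spread between mice as well. By mouse, the general genes differed by 0.13, -0.22, -0.57 and -3.10 in mice 1 to 4, and the goblet genes by -0.76, -1.09, 0.88 and -1.03. The absorptive genes differed by -0.01, -0.91, -2.12 and -1.72, below 0 in 4 of 4 mice, as was the mean of all 33 genes (-0.24, -0.50, -0.68 and -2.34). With values raised to background the absorptive genes differed by -0.09, -0.02, -2.12 and -1.35, so mice 1 and 2 were close to 0. All 33 genes then differed by -0.06, -0.37, -0.58 and -1.90. In mouse 1 the sign turned for the general (-0.22) and the goblet genes (0.03). Without BEC replicate 3 the means were -0.14 for general, 0.36 for goblet, 0.02 for absorptive and -0.64 for transcription factor genes, and without LEC replicate 3 they were -1.86, -1.82, -2.08 and -1.95.

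Other epithelial genes, listed beside the 33, were read in the same way. Of 24 tested absorptive genes, 12 had an unadjusted p under 0.05 for the mouse, against 8.11% of all genes. So did 3 of 16 genes listed as goblet (Muc3, Muc13 and Bcas1) and 5 of 24 general genes. Muc13, a transmembrane mucin, read 3.93, 4.90, 10.42 and 5.72 on LEC and 7.80, 7.01, 12.47 and 10.41 on BEC. Ceacam1, an adhesion molecule that endothelium can also carry, was 8.55, 8.72, 11.19 and 8.73 on LEC and 10.51, 10.66, 12.00 and 10.83 on BEC. Both arrays of mouse 3 were the highest of their cell type for these genes too. Jup and Spint2 had the highest means of the general list, at 8.71 to 11.30 and 6.69 to 11.15 over the 8 arrays. Pdia5 (6.12 to 8.18) and Sult1a1 (7.67 to 10.73) had high means in the goblet and absorptive lists. For none of Jup, Spint2, Pdia5 and Sult1a1 were both arrays of mouse 3 the highest of their cell type. Spint2 was highest on LEC replicate 1, Pdia5 on BEC replicate 2 and Sult1a1 on LEC replicate 4. Jup was highest on LEC replicate 3, but its highest BEC array was replicate 1.

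Between LEC and BEC, 1 of the 24 absorptive, 0 of the 16 goblet and 1 of the 24 general genes were called by limma at an adjusted p under 0.05, against 4.07% of all genes. At an unadjusted p under 0.05 there were 4, 2 and 1. With the replicate block the counts of calls were 2, 1 and 0, as Ceacam1 (-1.70, adjusted p = 0.0274) and Muc13 (-3.18, adjusted p = 0.0253) were called and Ppl was not. Car4, a membrane-bound carbonic anhydrase that capillary endothelium also expresses, lay between 0.61 and 9.79 on LEC and was 13.34, 12.94, 12.68 and 11.79 on BEC (-6.69 ± 1.36, adjusted p = 0.0121). Ppl, the desmosome-associated protein periplakin, was 6.34, 6.22, 7.27 and 5.58 on LEC and 3.11, 4.20, 1.12 and 3.03 on BEC (3.49 ± 0.85, adjusted p = 0.0350, and 0.0669 with the replicate block). For both genes the cell types did not overlap, and the order of arrays was not that of the 33 genes.

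Rarer epithelial lineages differed in their order of arrays. Tuft cell genes deviated by -0.65 on LEC replicate 3, -0.31 on BEC replicate 3 and -0.75 on BEC replicate 4, and their highest mean was on LEC replicate 1 (1.41). Enteroendocrine genes deviated by -0.58, -0.35 and 1.97 on the same 3 arrays. Among them Chgb, chromogranin B, was 5.43, 10.54, 12.88 and 13.67 on BEC and below background on all 4 LEC arrays. Its fitted difference was -8.81 (limma, adjusted p = 0.00222). Taking the LEC arrays at their background level, the mean was at least 82.8-fold lower in LEC, a value not itself tested. This bound is for the means, as in mouse 1 BEC was 5.43 against a LEC background of 4.88. Chga, a relative of Chgb, was 12.34 on BEC replicate 4 and 11.21 on BEC replicate 3. Of 14 tested enteroendocrine genes limma called Chgb alone at an adjusted p under 0.05, against 4.07% of all genes. The median difference (LEC minus BEC) of the 14 was 0.07. Crypt and stem cell genes deviated by 0.42, 0.95 and 0.51 on the 3 arrays, the 3 highest of the 8. Between LEC and BEC, limma called 0 of 9 tested at an adjusted p under 0.05, against 4.07% of all genes. An unadjusted p under 0.05 was found for 3 of 9 (Prom1, Slc12a2 and Myb), against 14.4% of all genes. Prom1 (0.26 to 8.19 on LEC and 8.07 to 10.31 on BEC) and Slc12a2 (5.83 to 9.51) had the highest means of that list. In the tuft list Plcb2 and Il17rb had them, and in the enteroendocrine list Cpe.

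**Figure D4:**
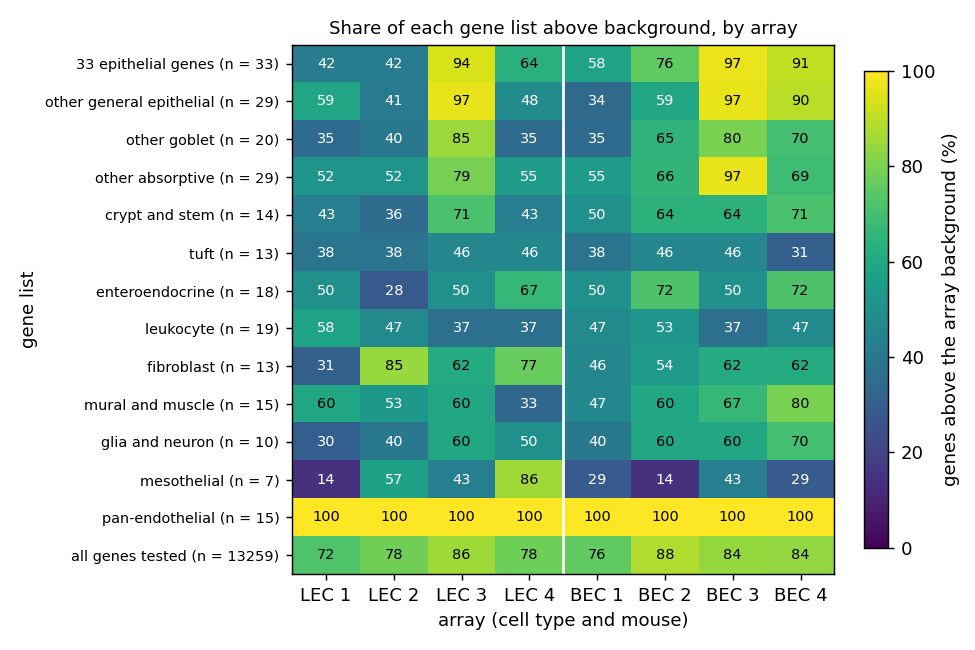
Percent of the genes of each list above the background level of the array, for 8 arrays; the bottom row is all 13259 genes tested. The 33 epithelial genes reach 94%, 97% and 91% on LEC replicate 3, BEC replicate 3 and BEC replicate 4 and 42% to 76% on the other arrays, while pan-endothelial genes are at 100% on all 8.

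Markers of further cell types were read beside these values. The mean of 19 leukocyte genes was 3.09 to 4.99 on LEC and 3.19 to 4.21 on BEC, and deviated by -0.62, -0.48 and -0.34 on LEC replicate 3, BEC replicate 3 and BEC replicate 4. Ptprc, which encodes the stained antigen CD45, ranged from -1.27 to 7.58 and was highest on BEC replicate 3. Lcp1, a leukocyte actin bundler, was called lower in LEC (-3.28, adjusted p = 0.0384, and 0.0850 with the replicate block), and Laptm5 ranged from 2.98 to 8.92. Of 12 tested leukocyte genes, whose median difference was 0.65, Lcp1 alone was called, against 4.07% of all genes. The mean of 13 fibroblast genes was 3.73 to 7.95 on LEC and 3.09 to 4.06 on BEC, with its highest deviations on LEC replicates 2 (3.29) and 4 (2.06). Fbln1, a matrix protein, was called higher in LEC (3.99, adjusted p = 0.0195), and Col1a2 and Col3a1 reached 11.20 and 11.64. Of 10 tested mural and muscle genes, whose median difference was -0.23, Rgs5, a pericyte gene, was called lower in LEC (-6.07, adjusted p = 0.00849). Kcnj8 and Pdgfrb, also of pericytes, were not called and had differences of 1.74 and 1.81, and Mylk ranged from 8.41 to 10.61. Called lower as well were the endothelial genes Cdh5 (-1.18, adjusted p = 0.0252) and Esam (-3.55, adjusted p = 2.37e-04), all by limma, and Pecam1 was 10.68 to 12.69. Limma called 0 of 6 glial and neuronal and 0 of 5 mesothelial genes at an adjusted p under 0.05, against 4.07% of all genes. At an unadjusted p under 0.05 there were 2 and 1, against 14.4% of all genes. The highest means of those lists were those of Stmn2, Sox10, Krt7 and Upk3b. Pan-endothelial genes deviated by -0.71 on LEC replicate 3, the lowest of the 8 arrays, and by 0.26 and 0.33 on BEC replicates 3 and 4. The share of all tested genes above background was 85.6%, 84.2% and 83.8% on the 3 arrays and 72.4% to 88.3% on the others. The part of these in the epithelial values was not tested.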

How the data were processed

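Total RNA of FACS-sorted cells was amplified by a linear isothermal method, labelled with biotin and hybridised to 1-colour arrays, per the labels' protocols. The deposited table holds log2 values per probe set for 8 arrays. MAS5 is named in the submitters' processing notes, with its version not given in the sources used here. The 2% trimmed mean of linear signals was 100.04 on each array, which was read from the values. They were used as deposited.

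Of 45101 probe sets, 64 are controls. Platform annotation updated through RefSeq gene numbers named 1 gene for 34945, several for 932 and none for 9160. The brightest probe set of a gene by mean was kept if above its array's 40th percentile on at least 4 arrays (13259 genes, 31 of the 33 members). Limma 3.58.1 (R 4.3.3; lmFit, eBayes with trend) fitted the cell type. P-values are two-sided with Benjamini-Hochberg adjustment over all genes. The mice are separate animals, so p-values cover animal, amplification and array together, and 4 arrays per group limit precision. Functions were tested on simulated data.

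The series design states animal-matched pairs. Same-mouse deviations correlated at 0.142, 0.0776, 0.181 and 0.0510 over all genes tested, and the fit without the block is the main one. These correlations do not measure how the 33 genes vary between mice. Members and lists were chosen with earlier results of these data known. All 33 members are named. From the other lists, called genes and the 2 brightest of a list by mean were named, and Ptprc, Pdgfrb, Myb, Dpt and the genes of the closing observations were added after their values were seen. Alternatives changed scaling, filter, probe set, background floor, trend, block and arrays.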

Additional observations from a re-analysis of the deposited data

Results flagged for a closer look

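In 78 sets of 4 arrays (33 genes and 6 group summaries in each cell type), 3 had 1 array far from the others by Dixon's criterion, and chance flags about 1 in 20. Clca1 was 11.80 on LEC replicate 3, with the other LEC arrays at 4.13 to 4.47. The goblet genes' mean deviation on LEC replicate 3 was 3.72, against -1.85 to -1.10 on the other LEC arrays. The mean deviation of all 33 genes on LEC replicate 3 was 2.49, against -1.60 to -1.24. The 3 concern the same array and share genes. No BEC set was marked, where replicates 3 and 4 were both high.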

How the results depend on the processing

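The count of genes called between LEC and BEC (540) was 534 with the mouse as a replicate block, which changed no call of the 33 genes but ended those of Ppl and Lcp1 and made those of Muc13, Ceacam1 and Dpt, 888 with every probe set on its own (more probe sets tested), 294 without both arrays of mouse 3, and 120 without these and BEC replicate 4, alternatives chosen after seeing the data with fewer arrays. Leaving out 1 array gave 332 (BEC replicate 2) to 520. The split of 234 higher and 306 lower was 162 and 336 with equal array medians. Epithelial genes called were 0 to 1 over the arrays left out and 0 under every other setting. Epithelial genes at an unadjusted p under 0.05 between mice (21 of 31, 0 after adjustment) were 3 to 22 with 1 mouse left out, 3 being without mouse 3. Their number was 15 of 20 with the filter at the 60th percentile (8.23% of all genes). With every probe set on its own it was 31 of 50 probe sets (8.06% of all). With values raised to background it was 22 of 31, where 17.3% of all genes had such a p (limma's F test). Of 552 refits of 31 genes, 517 kept sign and call, 34 turned sign in 13 genes without a call on either side, and 1 was newly called (Pigr). The cause of the turns was not tested. Cdh1 was -0.18 with equal medians and -0.55 with values raised to background. With the mean of probe sets Cldn3 was 0.16, Clca1 0.86 and Cdx2 0.26. Without mouse 3, Cldn3 was 0.24, Zg16 -0.80 and Fabp2 0.34, and without BEC replicate 4 as well, Cldn3 was 0.31, Zg16 -0.53 and Cdx2 0.15. With 1 array left out the range was -2.23 to 0.11 for Agr2, -0.29 to 2.68 for Car1, -1.78 to 1.43 for Cdh1, -1.81 to 1.05 for Cdhr5, -1.20 to -0.33 for Cdx2, -2.56 to 1.00 for Clca1, -0.66 to 0.28 for Cldn3, -1.01 to 0.72 for Cldn4, -2.44 to 0.38 for Elf3, -3.05 to 0.18 for Fabp2, -2.64 to 0.18 for Fcgbp, -1.63 to 0.35 for Lgals4 and -1.38 to 2.00 for Zg16. Signal near background limits Spdef, Cldn4, Cldn23, Elf3 and Cdx2 most.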

Other observations

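A few epithelial genes outside the 33, picked after their values were seen, were high on LEC replicate 1, where the 33 were mostly low. Dsp, the desmosomal plaque protein desmoplakin, was 14.33, 2.81, 12.64 and 5.90 on LEC and 3.19, 2.03, 11.18 and 10.48 on BEC. Perp, a desmosomal membrane protein, was 12.66, 0.71, 11.68 and 4.93 on LEC and 2.67, 4.34, 10.09 and 8.23 on BEC. On LEC replicate 1, Sox9 was 8.00 and Bcas1 7.37, with Epcam at 5.97 and Krt19 at 4.32.

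Some genes of surface colonocytes were much higher on BEC replicate 3 than on LEC replicate 3 of the same mouse, as Fabp2 was. Saa1, serum amyloid A, was 12.75 on BEC replicate 3, 6.75 on LEC replicate 3 and 1.08 to 5.86 on the other 6 arrays. Dpep1, a membrane dipeptidase, was 10.28 on BEC replicate 3 and 1.08 on LEC replicate 3. Atp12a, a proton pump of the colon, was 9.33 and 3.63. Dpep1 and Atp12a were below background on LEC replicate 3, and Saa1 was above it. Dpep1 and Atp12a did not pass the filter and were not tested.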
